A study of Caenorhabditis elegans with 6 samples.

Results

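The 6 GATA transcription factor genes of gut and epidermis in *C. elegans*, *elt-1*, *elt-2*, *elt-3*, *elt-6*, *elt-7* and *egl-18*, were followed in RNA-Seq libraries of whole adult worms. They were taken by name from a table of 46739 genes, and all 6 were found and tested. The study asked how the transcriptome changes when *Y37A1B.5*, the worm ortholog of human selenium-binding protein 1 and a gene of the hypodermis (the epidermis of the worm), is knocked down. All libraries came from the wild-type Bristol strain N2, kept at 20 °C, each lysate pooling many whole worms. Worms were raised on *E. coli* OP50 to young adulthood, then fed for 5 days with *E. coli* HT115, which carried the empty vector L4440 in the control (3 libraries) or a *Y37A1B.5* RNAi plasmid in the other group (3 libraries). Both groups thus shared strain, age, temperature and vector backbone, and the labels describe no mutation or transgene.

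GATA factors bind DNA through zinc fingers that recognize the letters GATA, and they act in a cascade that sets up tissues in the worm. In the gut, ELT-2 is the main factor that keeps genes of the intestine on from the embryo into adult life, and ELT-7 acts beside it with an overlapping role. In the epidermis, ELT-1 commits embryonic cells to epidermal fate and ELT-3 follows it in the main body syncytium. EGL-18 (also called ELT-5) and ELT-6 keep the lateral seam cells, a row of epidermal stem-like cells, from fusing with that syncytium, downstream of Wnt signalling, and they also act in the vulva. As whole worms were lysed, fewer cells of a type and less RNA per cell cannot be told apart.

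Library totals ran from 34403223 to 46733527 counts, and each of the 6 genes had 183 to 3175 counts in any library. *Y37A1B.5* itself lay between 21.8 and 35.8 CPM (counts per 1000000, on the TMM scale of edgeR) in the control and between 79.1 and 143 CPM in the other group. Counts assigned to the targeted gene were therefore higher, not lower, in the libraries labelled with its RNAi, against the label. The log2 fold change was 1.85 (standard error (SE) 0.22, edgeR adjusted p = 0.000834). In the annotation 33 genes overlap *Y37A1B.5*, 15 of them on its strand and 0 of them protein-coding. The most counted of the 33, taken over both strands, had up to 940 counts in a library. The source of the reads on *Y37A1B.5* was not tested. The second group is called the libraries labelled *Y37A1B.5* RNAi, or labelled libraries, throughout, and every direction below rests on that label. The 3 reference genes of the qRT-PCR, *cdc-42*, *tba-1* and *pmp-3*, had log2 fold changes with a median of −0.045, and 0 of 3 passed the test (0 at an unadjusted p under 0.05 in edgeR).

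In the assembly WBcel235 with the Ensembl release 115 annotation, the 6 genes are protein-coding and all lie on the plus strand. *egl-18* (WBGene00001186, chromosome IV, 1902322 to 1917840) and *elt-6* (WBGene00001253, chromosome IV, 1917977 to 1921643) are direct neighbours with 136 bp between them, *egl-18* upstream. *elt-1* (WBGene00001249) lies on chromosome IV from 9614995 to 9620280. *elt-2* (WBGene00001250, 10481240 to 10483441) and *elt-3* (WBGene00001251, 13934874 to 13941216) lie on chromosome X, and *elt-7* (WBGene00015981) lies on chromosome V from 4770670 to 4773086. No member overlaps another protein-coding gene, and the non-coding genes inside *elt-1*, *elt-3* and *egl-18* had at most 1 count in a library. The genes differ in structure, from 15519 bp and 5 exon blocks in *egl-18* to 2202 bp and 9 exon blocks in *elt-2*.

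Of the 6 genes, *elt-1* and *elt-6* were lower in the labelled libraries, with changes of −28.5% and −27.4%, and 0 were higher. *elt-2* and *elt-7*, the factors of the gut, did not pass the test, nor did *elt-3* and *egl-18*. Among all 15003 genes tested with edgeR's quasi-likelihood test (Benjamini-Hochberg adjustment, adjusted p under 0.05), 13.7% were called, 8.85% lower and 4.81% higher. All 6 log2 fold changes were below 0 with TMM scaling (that of *elt-7* was 0.012 with DESeq2), with a median of −0.16, while the median over all genes tested was −0.028 and 8111 of them were below 0.

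**Figure D1:**
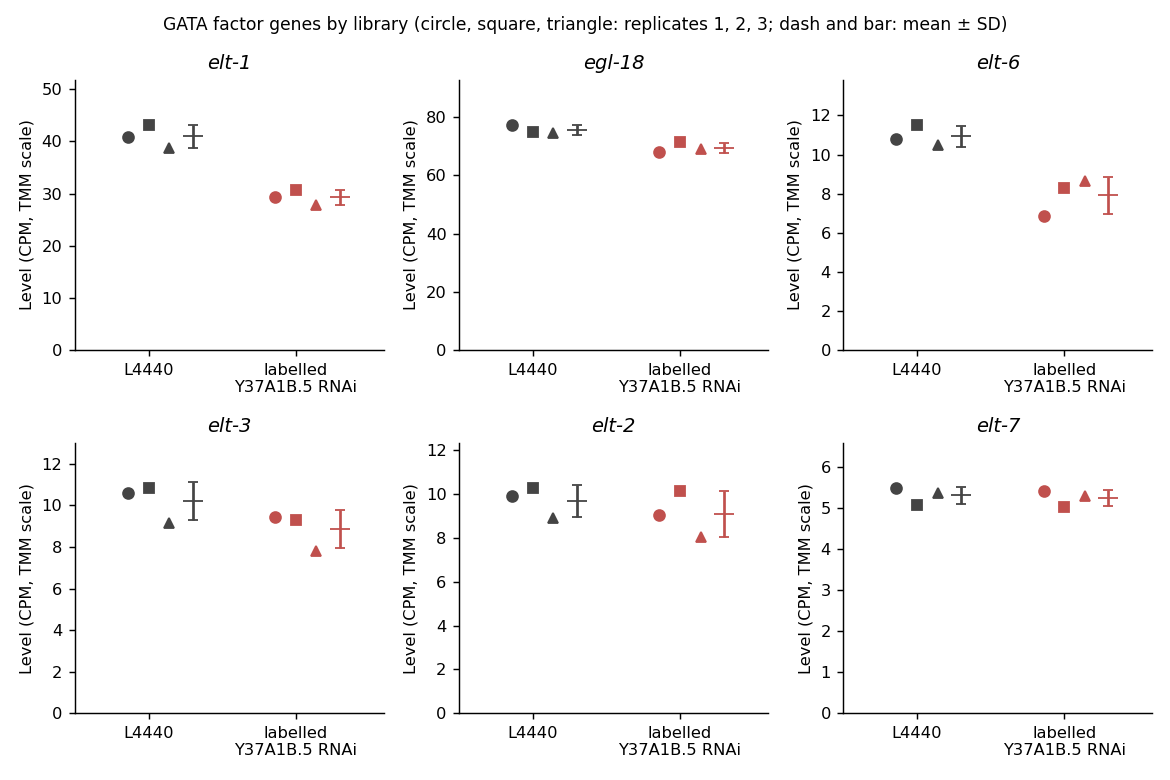
Level of each GATA factor gene (CPM on the TMM scale, y axis from 0) in the 3 control (L4440) and the 3 labelled libraries, with circle, square and triangle for replicates 1, 2 and 3 and a dash with bar for mean ± SD. For *elt-1*, *elt-6* and *egl-18* every labelled library lay below every control library, whereas the groups overlapped for *elt-3*, *elt-2* and *elt-7*. Over all genes tested, groups did not overlap for 40.5% (22.1% with the labelled libraries lower).

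*elt-1*, the factor of epidermal fate, had 40.9, 43.2 and 38.8 CPM in control replicates 1 to 3 and 29.4, 30.7 and 27.8 CPM in labelled replicates 1 to 3. The groups lay well apart, since the lowest control library stood above the highest labelled one by more than the spread within either group. Its mean fell from 40.96 ± 2.19 to 29.3 ± 1.47 CPM (SD, n = 3), or by 0.48 on the log2 scale (SE 0.074, adjusted p = 0.00312 in edgeR). The approximate 95% interval of this log2 fold change ran from −0.65 to −0.32, and 11.9% of all genes tested had a lower log2 fold change. The call held in each fit that left out a library, at log2 fold changes of −0.52 to −0.44 (highest edgeR adjusted p = 0.0196). Fold changes also moved with transcript length over the whole table, with medians on the log2 scale of 0.090 in the shortest and −0.16 in the longest of 4 length classes, so a fit with that trend removed was made too. *elt-1*, with 2212 bp of exon against a median of 1364 bp, then had a log2 fold change of −0.36 (edgeR adjusted p = 0.00525).

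*elt-6*, a factor of the seam cells and vulva, had 10.8, 11.5 and 10.5 CPM in control replicates 1 to 3 and 6.86, 8.27 and 8.64 CPM in labelled replicates 1 to 3. Labelled replicate 1 was the lowest, and again the groups did not overlap, as for 40.5% of all genes tested (22.1% with the labelled libraries lower). The mean was 10.9 ± 0.537 CPM in the control and 7.92 ± 0.941 CPM in the labelled group (SD, n = 3). On the log2 scale *elt-6* fell by 0.46, with a standard error of 0.11 and an approximate 95% interval of −0.70 to −0.22 (edgeR adjusted p = 0.0223). This call rested on single libraries more than that of *elt-1*. It was lost without control replicate 1 (edgeR adjusted p = 0.0702), control replicate 2 (0.0914) or labelled replicate 1 (0.0701), at log2 fold changes of −0.47, −0.42 and −0.36. With the length trend removed it stood at −0.42 (edgeR adjusted p = 0.0168), so that the same 2 of the 6 genes were called as before, where 19.8% of all genes were called in that fit.

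*egl-18*, the partner of *elt-6* in seam cells and its upstream neighbour, was the most counted member. Its level was 77.4, 74.8 and 74.6 CPM in control replicates 1 to 3 and 68.2, 71.4 and 69.0 CPM in labelled replicates 1 to 3. Although the groups did not overlap, which held for 40.5% of all genes tested (22.1% with the labelled libraries lower), the step was small beside that of *elt-6*. The estimate on the log2 scale was −0.12, with a standard error of 0.062 and an approximate 95% interval of −0.26 to 0.015, and it missed the threshold (edgeR adjusted p = 0.196). A decrease larger than 0.26 on the log2 scale thus lay outside that interval.

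*elt-3*, the epidermal factor that follows ELT-1, had 10.6, 10.8 and 9.15 CPM in control replicates 1 to 3 and 9.46, 9.31 and 7.80 CPM in labelled replicates 1 to 3. Control replicate 3 fell below labelled replicates 1 and 2, so the groups overlapped. In either group replicate 3 was the lowest. The log2 fold change of −0.20 had an approximate 95% interval of −0.45 to 0.044 (edgeR adjusted p = 0.226). A difference was thus not detectable in this fit without pairs, while one of up to −0.45 lay inside the interval. With the replicate number as a block the approximate 95% interval ran from −0.40 to −0.015, and *elt-3* was still not called (edgeR adjusted p = 0.118).

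*elt-2*, the main factor of the gut, had 9.92, 10.3 and 8.87 CPM in control replicates 1 to 3 and 9.02, 10.1 and 8.04 CPM in labelled replicates 1 to 3, and the order of the replicates was alike in both groups. Its log2 fold change was −0.093 with an approximate 95% interval of −0.34 to 0.15 (edgeR adjusted p = 0.591). *elt-7*, its partner, had 5.48, 5.09 and 5.37 CPM in control replicates 1 to 3 and 5.41, 5.04 and 5.29 CPM in labelled replicates 1 to 3. Its log2 fold change was −0.020 (approximate 95% interval −0.25 to 0.21, edgeR adjusted p = 0.913). Its groups lay nearly on top of each other, and the sign of so small a value turned with DESeq2 and in 2 of the 6 fits without a library.

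**Figure D2:**
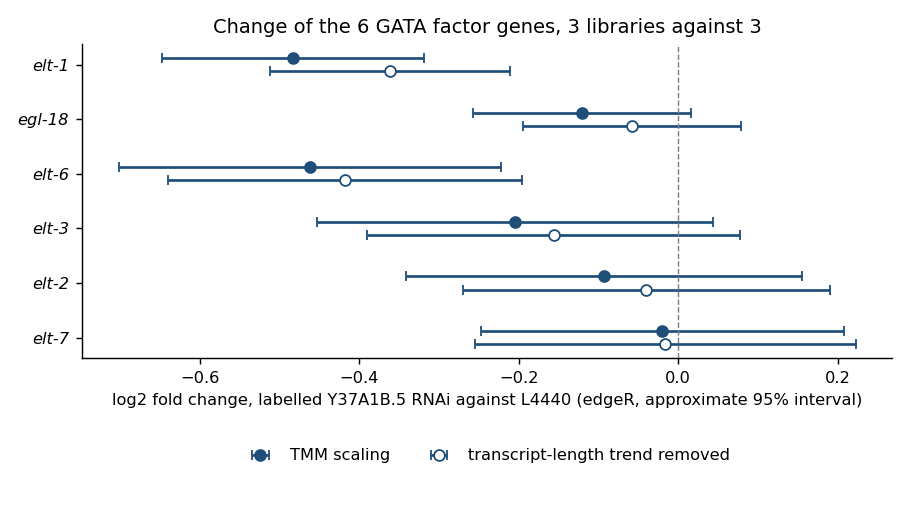
log2 fold change of each GATA factor gene, labelled libraries against control (x axis), as a point with its approximate 95% interval from edgeR, for TMM scaling (filled) and with the trend on transcript length removed (open). The intervals of *elt-1* (−0.65 to −0.32) and *elt-6* (−0.70 to −0.22) lie below 0 in both fits, and those of the other 4 genes include 0.

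Levels of different genes were compared per length, as CPM per kb of exon. In the control the order was *egl-18* (44.8 ± 0.926), *elt-1* (18.5 ± 0.989), *elt-6* (7.79 ± 0.382), *elt-3* (6.96 ± 0.626), *elt-7* (6.32 ± 0.245) and *elt-2* (6.21 ± 0.462), all as mean ± SD of 3 libraries in CPM per kb. *egl-18* and *elt-1* stood apart from their neighbours in that order, by ratios of 2.42 and 2.38. *elt-6* and *elt-3* did not overlap but differed by a ratio of only 1.12, and the libraries of *elt-3*, *elt-7* and *elt-2* overlapped. The seam cell factor *egl-18* thus had more signal per length than 77.7% of the tested genes with a known length, while *elt-2*, the main factor of the gut, lay above 46.5% of them. In the labelled libraries *elt-6* moved from the third to the last place, at 5.64 ± 0.670 CPM per kb, but its libraries overlapped those of *elt-2* (5.82 ± 0.673), as did those of *elt-2* and *elt-3* and of *elt-3* and *elt-7*. *egl-18* (41.2 ± 0.992) and *elt-1* (13.2 ± 0.663) kept the first places there.

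**Figure D3:**
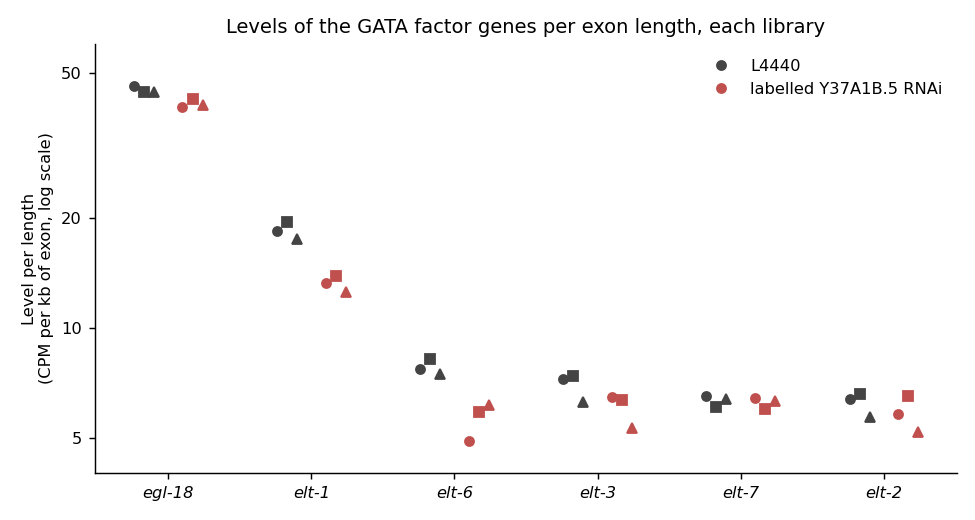
Level of each GATA factor gene per exon length (CPM per kb of exon, log axis) in each control (dark) and labelled (red) library, with circle, square and triangle for replicates 1, 2 and 3. *egl-18* (44.8 in the control) and *elt-1* (18.5) stand above the other 4 genes, whose control means lie between 6.21 and 7.79 CPM per kb.

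Whether members changed unequally was asked with the log2 ratio of 2 genes within a library, which does not depend on how libraries are scaled. Of the 5 ratios planned, those of *egl-18* to *elt-6* and of *elt-3* to *elt-1* did not overlap between groups. The log2 ratio of *egl-18* to *elt-6* was 2.84, 2.70 and 2.83 in control replicates 1 to 3 and 3.31, 3.11 and 2.997 in labelled replicates 1 to 3. All labelled libraries lay higher, by 0.35 on average (exact permutation test, two-sided, p = 0.1, adjusted p = 0.25 over 5 ratios). A p of 0.1 is the smallest that 3 libraries against 3 can give, so no ratio could pass 0.05. The mean difference between groups in this ratio was larger than the SD within either group (0.0789 and 0.160), and it ranged from 0.26 to 0.42 in the 6 cases without a library.

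For *elt-3* to *elt-1* the log2 ratio was −1.94, −1.995 and −2.09 in control replicates 1 to 3 and −1.63, −1.72 and −1.83 in labelled replicates 1 to 3. It was higher in all labelled libraries, by 0.28 on average (exact permutation test, two-sided, p = 0.1, adjusted p = 0.25 over 5 ratios). The other 3 ratios overlapped between groups. Their mean differences, labelled minus control, were −0.079 for *elt-2* to *elt-7*, −0.084 for *elt-3* to *egl-18* and 0.27 for *elt-3* to *elt-6* (exact permutation p of 0.7, 0.6 and 0.3). The last of these was the most variable, since labelled replicate 1 stood at 0.46 and labelled replicate 3 at −0.15. The ratio of the epidermal *elt-1* to the gut factor *elt-2* was added after the values had been seen. It was 2.04, 2.07 and 2.13 in control replicates 1 to 3 and 1.70, 1.5998 and 1.79 in labelled replicates 1 to 3, so that it did not overlap and differed by −0.38 (exact permutation p = 0.1, adjusted p = 0.2 over 6 ratios).

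**Figure D4:**
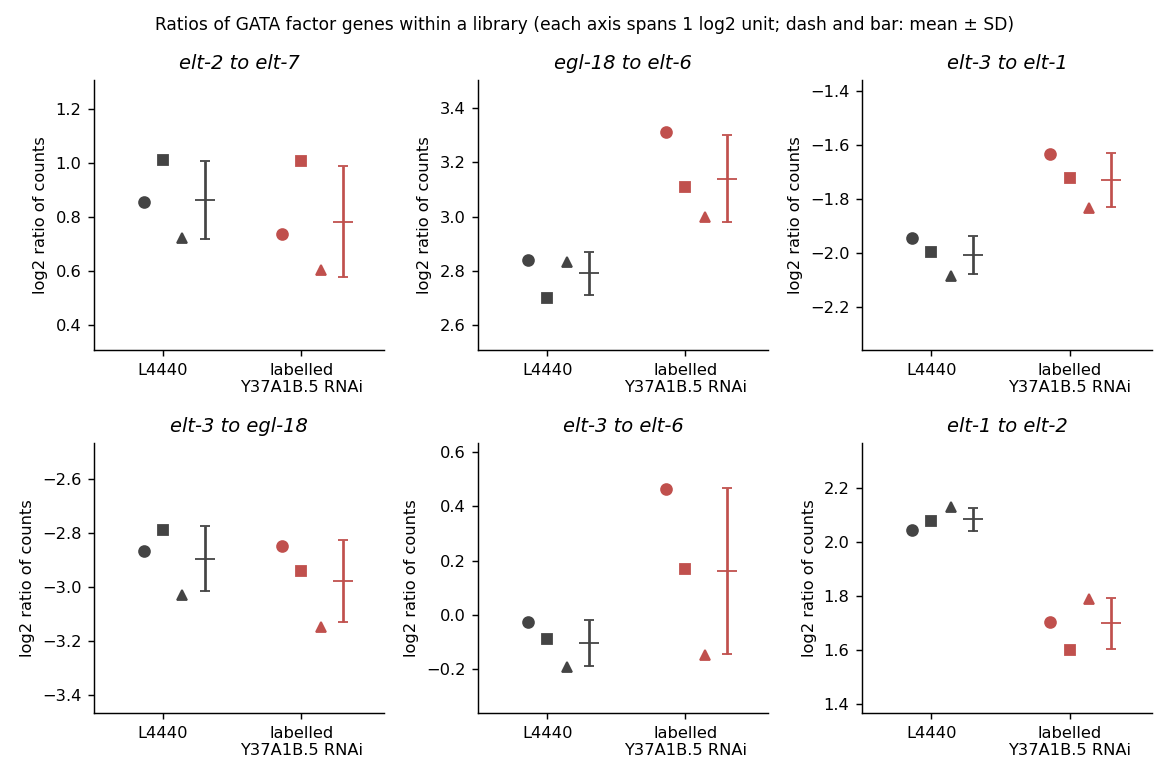
log2 ratio of the counts of 2 GATA factor genes within each library, control (dark) against labelled (red), with mean ± SD and with each y axis spanning 1 log2 unit. The ratios of *egl-18* to *elt-6*, of *elt-3* to *elt-1* and of *elt-1* to *elt-2* do not overlap between groups, and the other 3 do.

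The 5 other GATA factor genes read beside the members were hardly present. *end-1* and *end-3*, which start the gut lineage in the embryo ahead of *elt-2*, had at most 7 and at most 30 counts per library, and *med-1* and *med-2*, which act before them, at most 2 each. *elt-4*, a small GATA gene that ends 5280 bp upstream of *elt-2* on the same strand, had 15 to 28 counts. Only *elt-4* and *end-3* passed the filter on low counts. Neither was called, with log2 fold changes of 0.29 and −0.076 (edgeR adjusted p of 0.433 and 0.878). *end-1*, *med-1* and *med-2* could not be compared at this depth.

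Genes that work with *egl-18*, *elt-6* and *elt-1* in the seam were read next. Of 18 seam cell regulators tested, 4 were lower and 0 higher in the labelled libraries, where 8.85% of all genes were called lower. Their median log2 fold change was −0.30, against −0.028 for all genes tested, and −0.14 against 0.049 with the length trend removed. The median exon length of the list was 2330 bp. *nhr-25*, a nuclear receptor of epidermal differentiation and molting, had 18.1, 19.2 and 17.9 CPM in control replicates 1 to 3 and 10.4, 10.7 and 9.04 CPM in labelled replicates 1 to 3. Its groups stood far apart, and it fell by 0.87 on the log2 scale (SE 0.093, adjusted p = 0.000634 in edgeR). *ceh-16*, the engrailed homeobox gene of the seam cells, which acts ahead of *egl-18*, had 13.4, 14.5 and 13.2 CPM in the control and 6.80, 8.18 and 9.68 CPM in the labelled libraries. As for *elt-6*, labelled replicate 1 was lowest and replicate 3 highest, and the gene fell by 0.73 on the log2 scale (SE 0.12, adjusted p = 0.00511 in edgeR).

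*pop-1* and *sys-1*, the TCF factor and the beta-catenin of the Wnt asymmetry pathway, fell by 0.33 and 0.29 on the log2 scale (edgeR adjusted p of 0.0259 and 0.0358). Both lost their calls with the length trend removed (−0.17 and −0.11), and 2 of the 18 regulators, *ceh-16* and *nhr-25*, were then called, where 7.82% of all genes were called lower. Those same 2 kept their calls in every fit that left out a library, in which the count called lower was between 2 and 4. Further seam genes missed the threshold, such as *bro-1* (−0.46) and the fusogen *eff-1* (−0.42), at edgeR adjusted p of 0.0815 and 0.0718. The groups did not overlap for either, which held for 40.5% of all genes tested (22.1% with the labelled libraries lower).

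Epidermal genes known to receive GATA input or to mark epidermal differentiation moved in both directions. Of 14 such genes tested, 3 were lower and 1 was higher, where 8.85% and 4.81% of all genes were. The cuticle collagen gene *sqt-3* had 86.3, 109 and 83.3 CPM in control replicates 1 to 3 and 50.1, 60.2 and 58.9 CPM in labelled replicates 1 to 3. It fell by 0.72 on the log2 scale (SE 0.11, adjusted p = 0.00312 in edgeR) without overlap of the groups. *nhr-25*, described above, is the second, and the third is the collagen gene *col-10* (−0.76, edgeR adjusted p = 0.0406), which lost its call in 5 of 6 fits that left out a library and with DESeq2 (adjusted p = 0.0955). In contrast, *col-19*, a collagen gene of the adult cuticle, was at 15.5 ± 3.83 CPM in the control and rose to 26.2 ± 4.33 CPM (SD, n = 3). Its log2 fold change was 0.75 with a standard error of 0.17 (edgeR adjusted p = 0.0216), and it lost the call only without labelled replicate 2 (edgeR adjusted p = 0.0590). Without labelled replicate 3, 6 of the 14 genes were called lower, where 10.6% of all genes were.

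*lin-26*, a zinc finger gene of epidermal fate, and *nhr-23*, a nuclear receptor of molting, lay at log2 fold changes of −0.19 and −0.015 and were not called. Of 12 epidermis markers, which share 6 genes with that list, 3 were called lower (*mlt-10*, *ptr-4* and *vab-10*) and 1 higher (*col-19*). Over all genes tested, 8.85% were called lower and 4.81% higher. With the length trend removed 1 marker was lower and 2 were higher, where 7.82% and 12% of all genes were. *ptr-4* was then no longer called (edgeR adjusted p = 0.0769), and it also lost its call in 4 of 6 fits without a library. The summed level of the 12 markers was between 516 and 548 CPM in the control and between 295 and 441 CPM in the labelled libraries. *vab-10*, a large spectraplakin of the epidermal attachments, made up 268 to 297 CPM of that sum in the control and 92.8 to 205 CPM in the labelled libraries, with labelled replicate 3 lowest, and was not called with the length trend removed (log2 fold change −0.13). The part of the epidermal share of RNA in the decreases of *elt-1* and *elt-6* was not tested.

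In the gut, genes with GATA sites in their control regions included 2 that rose. Of 18 such genes tested, 2 were higher and 0 lower, where 4.81% of all genes were called higher. Their median was 0.14 on the log2 scale, against −0.028 for all genes tested. *ftn-1*, which encodes the iron store ferritin, had 6.18, 5.53 and 6.999 CPM in control replicates 1 to 3 and 8.78, 10.4 and 12.6 CPM in labelled replicates 1 to 3. All labelled libraries stood higher, by 0.77 on the log2 scale (SE 0.14, adjusted p = 0.00861 in edgeR), and the call held without any 1 library. *pho-1*, an acid phosphatase of the gut, had 8.14, 9.15 and 8.10 CPM in the control and 11.7, 11.3 and 10.7 CPM in the other group. It rose by 0.41 on the log2 scale (SE 0.095, adjusted p = 0.0212 in edgeR), a call that was lost in 4 of the 6 fits without a library.

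The count of these gut genes depended on labelled replicate 3 and on transcript length. Without that library 8 of 18 were called higher (*ges-1*, *vit-3*, *vit-4*, *vit-5*, *pho-1*, *spl-1*, *asp-1* and *ftn-1*), where 7.89% of all genes were, and with the length trend removed 10 were, where 12% of all genes were. The yolk protein genes differed among themselves. *vit-3* had 1084, 1068 and 1147 CPM in control replicates 1 to 3 and 1581, 1533 and 910 CPM in labelled replicates 1 to 3, so that replicates 1 and 2 lay above the control and replicate 3 below it. *vit-2* had 11750, 12208 and 8688 CPM in the control and 10077, 9728 and 5308 CPM in the labelled libraries, where no labelled library lay above control replicates 1 or 2. In both genes labelled replicate 3 was the lowest library, and the log2 fold changes of *vit-1* to *vit-6* ran from −0.38 (*vit-2*) to 0.29 (*vit-4*), with 0 of the 6 genes called. *ges-1*, the gut esterase, was at 25.6, 25.1 and 23.01 CPM against 31.4, 32.7 and 24.5 CPM (log2 fold change 0.26, edgeR adjusted p = 0.121).

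Structural genes of the gut were read beside these as a measure of intestinal RNA. Of 12 brush border and endotube genes 1 was lower, the intermediate filament gene *ifp-1* (log2 fold change −0.76, edgeR adjusted p = 0.0348), and 0 higher, where 8.85% of all genes were called lower. With the length trend removed *act-5*, *ifc-2* and *vha-6* were called higher and *ifp-1* lower, where 12% and 7.82% of all genes were. The summed level of the list was 611 to 663 CPM in the control and 512 to 643 CPM in the labelled libraries. *erm-1* made up 292 to 303 CPM of that sum in the control and 207 to 299 CPM in the labelled libraries, with labelled replicate 3 lowest. *act-5* is also in the list of gut genes with GATA sites. *ifp-1* lost its call in 5 of 6 fits without a library. Over the 12 genes the median was −0.073 on the log2 scale, and the part of the share of gut RNA in the values of *elt-2* and *elt-7* was not tested.

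Of 12 cofactors and stress regulators read beside the GATA factors, 2 were lower and 0 higher, where 8.85% and 4.81% of all genes were. The 2 were *hlh-30*, a TFEB homolog of lysosome and autophagy genes (−0.35, edgeR adjusted p = 0.0202), and *cbp-1*, a histone acetyltransferase (−0.54, edgeR adjusted p = 0.0319). With the length trend removed *hlh-30* and *cbp-1* were at −0.13 and −0.14 and were not called. Each lost its call in 3 of 6 fits without a library. *egl-27*, a homolog of the chromatin factor MTA1, and *mdt-15*, a Mediator subunit of fat metabolism, had log2 fold changes of −0.16 and −0.18 and did not pass the test (edgeR adjusted p of 0.345 and 0.173).

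**Figure D5:**
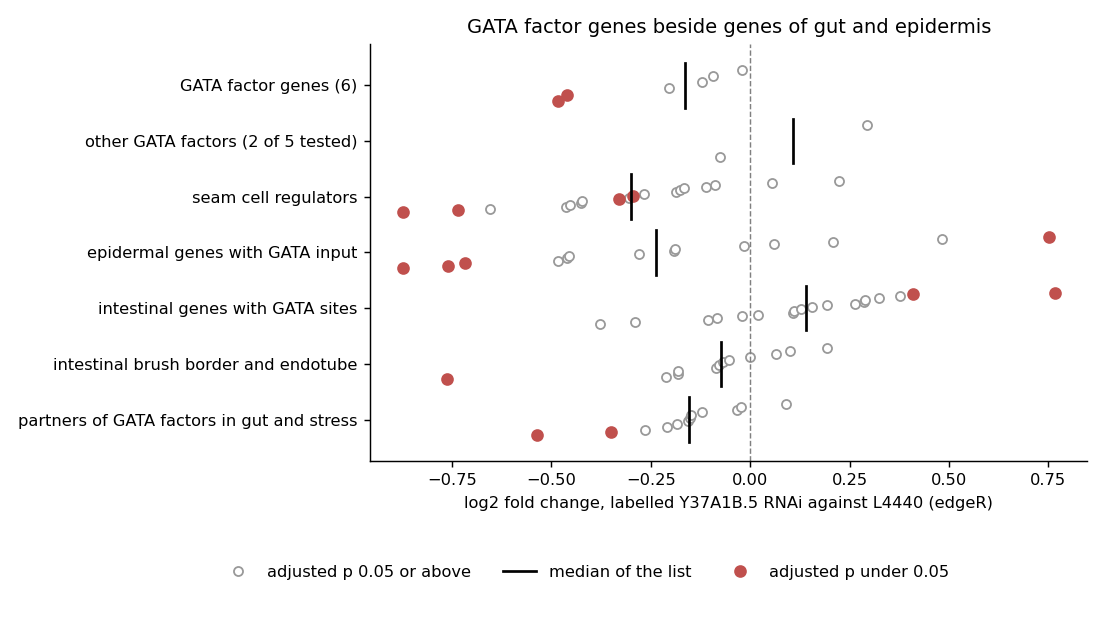
log2 fold change (x axis, labelled libraries against control) of the genes tested in each list, each a circle, filled where the edgeR adjusted p is under 0.05, with a line at the median of the list. The GATA factor genes have 2 of 6 called, both lower, the seam cell regulators 4 of 18 lower, and the gut genes with GATA sites 2 of 18 higher. The epidermal genes have 3 of 14 lower and 1 higher, and the brush border and endotube genes 1 of 12 lower. The cofactors and stress regulators have 2 of 12 lower, and the other GATA factors 0 of 2 called. Over all genes tested, 8.85% were called lower and 4.81% higher.

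Adult hermaphrodites carry embryos, in which several of these factors act. Of 14 embryo genes 10 were tested. Lower were *nhr-2* (−0.40, edgeR adjusted p = 0.0133) and *tbx-38* (−0.41, edgeR adjusted p = 0.0429), and *pal-1* (0.24, edgeR adjusted p = 0.0481) was higher. Over all genes tested, 8.85% were called lower and 4.81% higher. The summed level of the 14 embryo genes was 236 to 256 CPM in the control and 237 to 255 CPM in the labelled libraries. *pal-1*, the gene called higher, made up 121 to 137 CPM of that sum in the control and 152 to 157 CPM in the labelled libraries. Of the 10 genes tested, 6 had log2 fold changes below 0, at a median of −0.20 against −0.028 for all genes tested. An unadjusted p under 0.05 in edgeR was found for 5 of the 10, and for 4966 of all 15003 genes tested. *tbx-38* and *pal-1* lost their calls in several fits without a library, as did *nhr-2* without control replicate 1 or 2, and the part of embryos in the decrease of *elt-1* and *elt-6* was not tested. Of 14 germline and oocyte genes 0 were called (0 at an unadjusted p under 0.05 in edgeR), with a median of 0.021 on the log2 scale. With the length trend removed 3 were called higher, at a median of 0.16, where 12% of all genes were called higher. Of 5 sperm genes tested 0 were called (1 at an unadjusted p under 0.05).

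Neurons and muscle were read in the same way. Of 12 pan-neuronal genes 2 were lower, *unc-10* (−0.90) and *unc-31* (−0.46), where 8.85% of all genes were. *unc-31* lost its call with the length trend removed (−0.12) and in 5 of 6 fits without a library. The summed level of the 12 was 278 to 296 CPM in the control and 263 to 278 CPM in the labelled libraries. *snb-1* alone (log2 fold change 0.025) made up 156 to 166 CPM of it in the control and 161 to 169 CPM in the labelled libraries. Of the 12 genes, 11 had log2 fold changes below 0 (8111 of all 15003 genes tested). An unadjusted p under 0.05 in edgeR was found for 5 of the 12, and for 4966 of all genes tested. Of 12 genes of body wall muscle 2 were called higher and 0 lower, where 4.81% and 8.85% of all genes were. The 2 were *unc-27* (0.53) and *pat-10* (0.54). Neither passed the test when control replicate 1 or control replicate 2 was left out. Other muscle genes missed the threshold with groups that did not overlap, in both directions. *unc-89* (−0.69) and *unc-22* (−0.62) were at edgeR adjusted p of 0.0570 and 0.0683, with labelled replicate 3 lowest in both. *tni-3* lay at 0.34 (edgeR adjusted p = 0.0638). Groups did not overlap for 40.5% of all genes tested (22.1% with the labelled libraries lower). The median of the 12 muscle genes was 0.016, with 6 below 0. With the length trend removed it was 0.19, and 4 were called higher and 0 lower, where 12% and 7.82% of all genes were.

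Genes that ran most closely with each member over the 6 libraries were found by the root mean square distance of centred log2 CPM, taken over the 8871 genes whose mean reached 5 CPM. With so many genes and 6 libraries, these matches are given as a description only. *elt-1* was nearest to *R119.5* (distance 0.035) and to the nuclear receptor gene *nhr-45* (0.039), which had log2 fold changes of −0.47 and −0.52. *elt-6* was nearest to *sdz-25* (0.024) and *Y77E11A.23* (0.036), at log2 fold changes of −0.45 and −0.52. For *egl-18* these were WBGene00013016 (0.014) and *snfc-5* (0.015), for *elt-3* *mct-6* (0.021) and *Y47G6A.5* (0.027), for *elt-2* *lap-1* (0.028) and *ZK813.1* (0.031), and for *elt-7* *Y54H5A.2* (0.013) and *dnj-9* (0.025). No member was among the nearest 2 genes of another member, and no gene was shared between these pairs.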

How the data were processed

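The values deposited by the authors are read counts per gene that were not normalized, for 6 libraries of poly(A) RNA made with a stranded kit. As the study's methods and the submitters' notes state, reads were trimmed and filtered with SGA preprocess, mapped to WBcel235 with TopHat2 2.1.0 and counted on their strand with featureCounts 1.5.0. Reads with several positions or over several genes were left out, which lowers counts where genes resemble each other.

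Groups and replicate numbers came from the sample titles. These counts were compared between groups in R 4.3.3 with edgeR 4.0.16 (TMM factors, filterByExpr with a minimum count of 10 and a minimum total of 15, quasi-likelihood test, two-sided, adjustment over all 15003 genes tested, threshold 0.05). CPM were calculated here from the counts and TMM factors. Intervals of log2 fold changes use the standard error from the F statistic and are approximate. The test was also run on simulated counts with the same dispersion for every gene and no trend on length. That run does not cover the length trend or the uneven spread of these data. With 34403223 to 46733527 counts per library, *elt-7* was the least counted member with 183 to 224 counts. The labels do not say that replicates came from separate cultures, while the study describes independent experiments. Otherwise p-values measure only the spread between these libraries.

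The alternatives were RLE and upper-quartile factors, DESeq2 1.42.0, 2 other filters (at least 1 count in all, at least 10 counts in every library), the replicate number as a block, leaving out each library, and removal of each library's trend on exon length (loess, span 0.5), for which 14919 genes had a length. Symbols and positions were taken from Ensembl release 115, which holds 46484 of the 46739 genes. The members, lists and tests were chosen with earlier results of these data known. Besides the members and *Y37A1B.5*, the text was set to name up to 5 genes per list with the smallest adjusted p under 0.05 and the 2 nearest genes of each member. Others named, such as *bro-1*, *eff-1*, *lin-26*, *nhr-23*, *ges-1*, *vit-2*, *vit-3*, *tni-3*, *unc-22* and *unc-89*, were chosen after their values were seen. Sequences were not analysed here.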

Additional observations from a re-analysis of the deposited data

How the results depend on the processing

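Over 13 alternatives, *elt-1* kept its call and its direction, at log2 fold changes of −0.52 to −0.36 (edgeR or DESeq2 adjusted p of 2.06e-05 to 0.0196). *elt-6* kept its direction in all of them, and over the 6 fits that left out a library its log2 fold change ranged from −0.52 to −0.36. It lost its call in 3 of those (edgeR adjusted p up to 0.0914) and in no other alternative. The number of the 6 genes called was between 1 and 2 in the fits without a library and 2 in all other settings. *elt-2*, *elt-3* and *egl-18* were not called in any setting. The sign of *elt-7* turned with DESeq2 (0.012) and lay between −0.051 and 0.0098 in the fits without a library.

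The number of genes called over the whole table was 3298 without a filter beyond 1 count and between 727 (without control replicate 2) and 2811 (without labelled replicate 3) in the fits without a library, against 2050. With the length trend removed it was 2958, of which 60.5% were higher, against 35.2%. With RLE factors the share of higher genes was 41.1%, with upper-quartile factors 23.8% and with DESeq2 48.1%. The replicate numbers were not taken as pairs in the main fit, since the study's methods describe no pairing. The deviations of same-numbered libraries correlated by 0.135, 0.0626 and 0.121 across genes, and those of other pairs by −0.1465 to 0.0357, so a pairing is not excluded. With the replicate block, 2917 genes were called, *elt-1* stood at −0.48 and *elt-6* at −0.47 on the log2 scale (edgeR adjusted p of 0.00211 and 0.0159), and no call among the 6 genes changed. Of the same-numbered libraries each correlated best with its own number. The *end* and *med* genes and *elt-4* had too few counts to show a small difference.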
